A study of Mus musculus with 9 samples.

Results

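The 10 genes described here, Dusp1, Dusp2, Dusp3, Dusp4, Dusp5, Dusp6, Dusp7, Dusp8, Dusp10 and Dusp16, encode dual-specificity phosphatases that act on mitogen-activated protein (MAP) kinases. They were chosen by symbol, and all 10 were found among the 15434 genes of the deposited table. RNA sequencing had been done on macrophages taken without culture or treatment from C57BL/6J mice, and 3 libraries each represent testis, epididymis (the duct in which sperm mature) and brain. Live cells had been sorted after collagenase digestion as CD45+, F4/80+ and CD11b+ and as negative for CD11c and Ly6C, and the brain libraries are titled microglia. Mouse number 1 is given for every testis library, 2 for every epididymis library and 3 for every brain library, with no word on separate animals. Cell suspensions of the male organs had been pooled, and the protocol does not say across how many mice. An effect of organ and one of mouse number cannot be told apart, and each p-value rests on the spread of these libraries alone, and that spread may be technical. In bulk libraries, fewer cells of a type and less RNA per cell cannot be told apart.

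MAP kinases (ERK, JNK and p38) are switched on when an upstream kinase phosphorylates a threonine and a tyrosine in their activation loop. Dual-specificity phosphatases remove both phosphates and so end the signal. In macrophages Dusp1 is the best known of them, since it shortens p38 and JNK signalling and limits cytokine output after stimulation. Dusp1, Dusp2, Dusp4 and Dusp5 encode nuclear enzymes that are transcribed quickly after a stimulus, Dusp6 and Dusp7 encode cytoplasmic enzymes selective for ERK, and Dusp8, Dusp10 and Dusp16 encode enzymes that prefer JNK and p38. Dusp3 encodes a small enzyme that lacks the kinase-binding domain of the others.

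Promoter windows are shown for 4 members: Dusp1, Dusp8 and Dusp5, whose testis libraries lay above every epididymis library, and Dusp7, whose testis libraries lay below every brain library. Testis libraries of Dusp6 also lay below every brain library, and those of Dusp2, Dusp10 and Dusp16 above, but these windows are not shown. Each window runs from 250 bases before to 50 bases after the RefSeq start of the gene on GRCm38.p6, read 5′ to 3′ on the strand of the gene. Capitals mark matches to TGACG on either strand, the core of the cAMP response element (CRE), and to the CArG box, the site of serum response factor. The windows lie at chr17:26508423-26508722 on the minus strand for Dusp1, chr7:142095235-142095534 on the minus strand for Dusp8, chr19:53528895-53529194 on the plus strand for Dusp5 and chr9:106368382-106368681 on the plus strand for Dusp7.
Dusp1: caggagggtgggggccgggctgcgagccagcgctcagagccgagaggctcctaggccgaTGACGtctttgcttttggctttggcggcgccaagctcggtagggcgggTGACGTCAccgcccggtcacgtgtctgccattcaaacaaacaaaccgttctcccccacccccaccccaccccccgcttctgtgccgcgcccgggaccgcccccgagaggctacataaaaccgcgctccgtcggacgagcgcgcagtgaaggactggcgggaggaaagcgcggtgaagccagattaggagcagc
Dusp8: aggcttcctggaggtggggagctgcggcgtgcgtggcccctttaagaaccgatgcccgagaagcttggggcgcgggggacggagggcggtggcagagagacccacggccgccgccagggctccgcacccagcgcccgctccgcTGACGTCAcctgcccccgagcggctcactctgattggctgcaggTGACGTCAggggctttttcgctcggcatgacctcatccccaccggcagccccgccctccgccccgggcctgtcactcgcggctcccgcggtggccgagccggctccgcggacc
Dusp5: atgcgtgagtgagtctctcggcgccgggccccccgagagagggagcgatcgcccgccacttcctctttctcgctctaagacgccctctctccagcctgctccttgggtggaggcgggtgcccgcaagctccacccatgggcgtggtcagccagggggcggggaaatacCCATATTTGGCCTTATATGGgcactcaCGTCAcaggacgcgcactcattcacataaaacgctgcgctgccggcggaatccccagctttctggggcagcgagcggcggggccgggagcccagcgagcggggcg
Dusp7: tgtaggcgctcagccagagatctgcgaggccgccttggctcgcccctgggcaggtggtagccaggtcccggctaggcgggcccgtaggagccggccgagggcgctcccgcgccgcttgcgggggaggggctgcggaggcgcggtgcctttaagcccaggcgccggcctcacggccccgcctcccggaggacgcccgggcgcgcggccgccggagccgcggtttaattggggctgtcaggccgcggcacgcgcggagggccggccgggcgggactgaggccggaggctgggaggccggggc

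RefSeq windows were found for 9 of the 10 members, all but Dusp4. The full CRE, TGACGTCA, occurred in the windows of Dusp1, starting 143 bases before the start of the gene, and of Dusp8, starting 107 and 63 bases before it. It occurred in 1.79% of all 32851 promoter windows of this length. The core TGACG, which each full CRE holds on both strands, occurred in 5 members (Dusp1, Dusp2, Dusp5, Dusp8 and Dusp16) and in 20.8% of all windows. The window of Dusp5 held 2 adjoining CArG boxes, starting 82 and 72 bases before its start, and 1.63% of all windows held at least 1. Of the other motifs searched on both strands, the E-box CACGTG occurred in 2 members (Dusp1 and Dusp2) and 7.15% of windows, the kappaB site in 5 members (Dusp1, Dusp3, Dusp5, Dusp6 and Dusp7) and 20.7%, and the AP-1 site TGANTCA in 0 members and 7.81%. The windows of Dusp3, Dusp6, Dusp7 and Dusp10 held neither a CRE core nor a CArG box. These matches describe letters in the windows and say nothing of binding.

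Reads in the table numbered 2727092 to 4458688 per library, and 1 read corresponded to between 0.808 and 1.11 of the normalised reads in which values are given below. Testis replicate 1 and epididymis replicate 3 lay away from the remaining libraries on principal component 3, with scores of 99.1 and 97.2 where the others ranged between -94.6 and 39.3. Counts of called members are therefore also given without these 2 libraries. Folds come from limma on log2(normalised reads + 1) over all 9 libraries. The added 1 shrinks folds of low genes, but single libraries at or near 0 can enlarge them beyond the ratio of means. Dusp2, for example, had a log2 fold of -1.06 in epididymis against brain with means of 72.2 and 69.8. Genes count as called where the adjusted p was below 0.05, after Benjamini-Hochberg adjustment over 11766 tested genes. All 10 members passed the filter on low values, which asked for 10 normalised reads or more in 3 libraries.

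Macrophage libraries of the testis held several times more Dusp1 RNA than those of the epididymis or brain, and Dusp1 was the 1 member called higher in testis against either organ. Dusp7, for an ERK-selective enzyme, was called lower in testis than in brain. Of the 10 members, 1 was called higher and 0 lower in testis against epididymis, where 4.39% of all tested genes were called, 2.49% higher and 1.9% lower. In testis against brain, 1 was called higher and 1 lower, where 11.7% of all tested genes were called, 6.82% higher and 4.83% lower. In epididymis against brain 0 members were called by limma, where 4.79% of all tested genes were (2.99% higher and 1.8% lower), and 0 members had an unadjusted p below 0.05 there. Neither edgeR nor DESeq2 called a member in that comparison. Without testis replicate 1 and epididymis replicate 3 the counts were again 1, 2 and 0, but Dusp6 took the place of Dusp7 (adjusted p = 0.038 and 0.081). A missing call does not show equal levels, since intervals of many members spanned several log2 units.

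**Figure D1:**
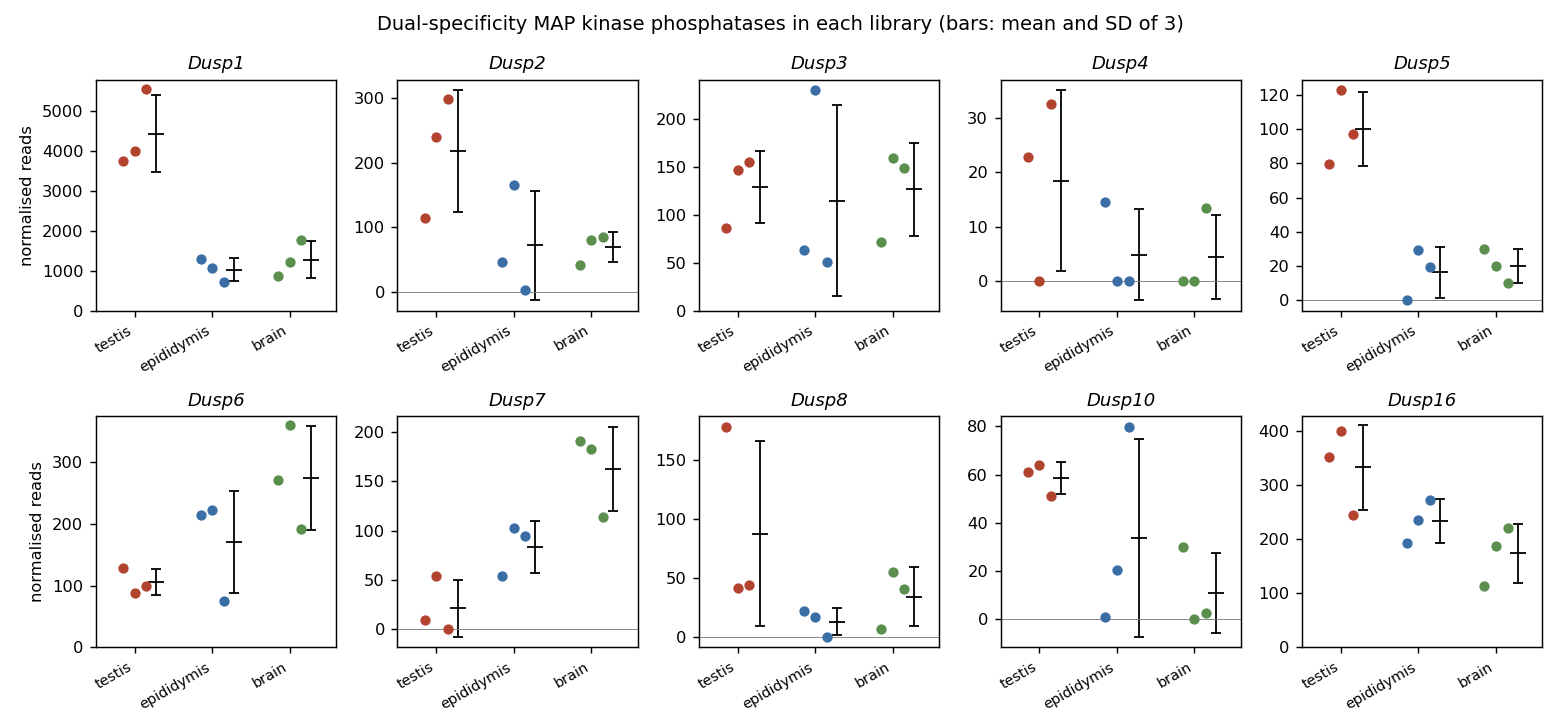
Normalised reads of the 10 genes (vertical axes, each from its own scale) in testis, epididymis and brain macrophages; dots are the 3 libraries of an organ, and the bars beside them give the mean and SD. The testis libraries of Dusp1 sit between 3765 and 5555, above all other libraries, and those of Dusp7 sit between 0 and 54.1, below every brain library.

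Dusp1, the nuclear phosphatase of p38, JNK and ERK, had 3765, 4002 and 5555 normalised reads in the testis libraries. It had 1295, 1066 and 720.2 in the epididymis libraries and 857, 1216 and 1767 in the brain libraries. Every testis library lay above every library of the other organs, while epididymis and brain libraries overlapped. Means were 4441 ± 972 in testis and 1027 ± 289.6 in epididymis (SD, n = 3 each), a log2 fold of 2.13 (SE 0.28, 95% interval 1.54 to 2.73, limma adjusted p = 0.00051). Against the brain mean of 1280.1 ± 458, the log2 fold in testis was 1.83 (SE 0.28, 95% interval 1.24 to 2.43, limma adjusted p = 0.00037). The difference between epididymis and brain had an interval of -0.89 to 0.30 around a log2 fold of -0.30 (limma adjusted p = 0.68). Leaving out any 1 library kept both testis calls, and so did edgeR and DESeq2, but with 1 prior variance for genes of every level, called the fit without the variance trend below, the adjusted p against epididymis was 0.062. The gene lies on chromosome 17 from 26505590 to 26562128 on the minus strand of GRCm38 in GENCODE M21, where 11 of its 3311 exonic bases are shared with Ergic1 on the opposite strand. Its RefSeq promoter window lies inside this span, as that of Dusp8 does inside its own. RefSeq and GENCODE therefore place these starts differently, and exon lengths follow GENCODE. The library kit does not mark strand, and Ergic1 itself averaged 32.2 ± 13.3 in testis, 54.6 ± 32.5 in epididymis and 43.5 ± 58.0 in brain.

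The other nuclear, inducible members were much rarer and none was called in any of the 3 comparisons. Dusp2, first found in activated lymphocytes, had 115, 239.9 and 298 normalised reads in testis, 47.3, 166 and 3.23 in epididymis and 42.8, 81.4 and 85.3 in brain. All testis libraries exceeded all brain libraries, but epididymis replicate 2 reached into the testis range. The log2 fold of testis over epididymis was 2.65 (95% interval 0.43 to 4.86, limma adjusted p = 0.20) and that of testis over brain 1.58 (95% interval -0.64 to 3.80, limma adjusted p = 0.40).

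Dusp5, whose product is nuclear and is specific for ERK, had 79.7, 123 and 97.5 normalised reads in testis, 0, 29.1 and 19.4 in epididymis and 30.1, 20.1 and 9.78 in brain. The lowest testis library stood above the highest library of either other organ, a separation shown only by Dusp1 and Dusp5 among the 10 members. Means were 99.99 ± 21.6 in testis, 16.2 ± 14.8 in epididymis and 19.97 ± 10.1 in brain. The test did not pass against epididymis (log2 fold 3.55, 95% interval 0.56 to 6.54, limma adjusted p = 0.20) or brain (log2 fold 2.37, 95% interval -0.62 to 5.36, limma adjusted p = 0.34). Of its 2473 exonic bases, 547 are shared with an antisense transcript, so the strand of those reads is uncertain.

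Dusp4, for another nuclear enzyme of this kind, was close to the limit of detection. It had 22.8, 0 and 32.5 normalised reads in testis, 14.5, 0 and 0 in epididymis and 0, 0 and 13.3 in brain, from 60, 16 and 15 reads in the 3 organs. In 5 of the 9 libraries no read was found, which allows at most 3 reads, or between 2.42 and 3.34 normalised reads, in each of them. Such limits cover counting error only. Intervals of all 3 folds of Dusp4 spanned more than 7 log2 units, and no difference was called. The testis library without a read was the deepest of all 9, at 4458688 reads. Dusp2 lies on chromosome 2 from 127336159 to 127338376, Dusp5 on chromosome 19 from 53529109 to 53542431 and Dusp4 on chromosome 8 from 34807297 to 34819894.

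The means of both cytoplasmic ERK phosphatase genes were lowest in testis and highest in brain. Dusp7 had 9.32, 54.1 and 0 normalised reads in testis, 53.6, 102 and 94.9 in epididymis and 191, 183 and 114 in brain. Testis and epididymis libraries overlapped narrowly, with testis replicate 2 just above epididymis replicate 1, whereas the brain libraries lay above all others. The 0 in testis replicate 3 is from 4170640 reads and allows up to 3 reads, or 2.56 normalised reads. Means were 21.1 ± 28.9 in testis, 83.6 ± 26.2 in epididymis and 163 ± 42.5 in brain. Testis over brain had a log2 fold of -4.27 (SE 1.20, 95% interval -6.83 to -1.70, limma adjusted p = 0.031), and testis over epididymis one of -3.30 (95% interval -5.86 to -0.73, limma adjusted p = 0.16). Epididymis over brain had a log2 fold of -0.97 (95% interval -3.54 to 1.60, limma adjusted p = 0.77). The call against brain was lost without testis replicate 1 (adjusted p = 0.057), testis replicate 3 (0.061) or brain replicate 1, 2 or 3 (0.13, 0.13 and 0.0786), and with edgeR on the recovered reads (0.14). It was also lost without the variance trend (0.097) and with only both organs in the fit (0.073). The size of this fold rests on the library at 0, since without testis replicate 3 it was -2.74.

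Dusp6, whose RNA is a widely used readout of ERK activity, had 128, 87.2 and 100.03 normalised reads in testis, 215, 223 and 75.5 in epididymis and 271, 360.1 and 191 in brain. All testis libraries lay below all brain libraries, while epididymis libraries overlapped with both organs and replicate 3 was the lowest of the 9. Testis over brain had a log2 fold of -1.34 (95% interval -2.39 to -0.29), which missed the threshold (limma adjusted p = 0.0998) but passed it without epididymis replicate 3 (0.039). Intervals of the other folds included 0, at -1.61 to 0.49 for testis over epididymis and -1.83 to 0.27 for epididymis over brain. Dusp6 lies on chromosome 10 from 99263231 to 99267489 and Dusp7 on chromosome 9 from 106368632 to 106375724.

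None of the 3 genes whose products prefer JNK and p38 was called. Dusp16, the most abundant of them, had 353, 401 and 245 normalised reads in testis, 193, 236 and 273 in epididymis and 113, 188 and 220.4 in brain. Testis lay above brain in every library, with a log2 fold of 0.96 (95% interval 0.15 to 1.76, limma adjusted p = 0.13), and overlapped with epididymis. The gap between testis and brain closed after rescaling every library to the same total. Dusp10, which restrains JNK in immune cells, had 61.1, 63.8 and 51.3 in testis, 0.909, 20.6 and 79.8 in epididymis and 30.1, 0 and 2.67 in brain. Its testis libraries agree closely and exceed those of brain (log2 fold 3.62, 95% interval 0.01 to 7.23, limma adjusted p = 0.21), whereas epididymis ran from near 0 to above testis.

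Dusp8 had 178, 41.2 and 43.6 normalised reads in testis, 21.8, 16.9 and 0 in epididymis and 6.38, 54.6 and 40.9 in brain. Testis libraries were all above epididymis libraries (log2 fold 3.23, 95% interval 0.04 to 6.42, limma adjusted p = 0.28), but most of the testis mean of 87.6 ± 78.3 came from replicate 1, the library that stood apart. Dusp3, the small enzyme without a kinase-binding domain, had 85.9, 146 and 155 in testis, 63.6, 229.8 and 50.7 in epididymis and 71.0, 159 and 148 in brain. Its organs overlapped throughout, with a log2 fold of 0.07 for testis over brain (95% interval -1.29 to 1.43) that turned to -0.16 after rescaling every library to 1 total. Dusp3 shares 604 of 4682 exonic bases with an antisense gene, and Dusp8 shares 66 of 4870 with a noncoding RNA gene. Dusp8 lies on chromosome 7 from 142079490 to 142095843, Dusp10 on chromosome 1 from 184013302 to 184075636, Dusp16 on chromosome 6 from 134715468 to 134792625 and Dusp3 on chromosome 11 from 101971143 to 101987013.

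**Figure D2:**
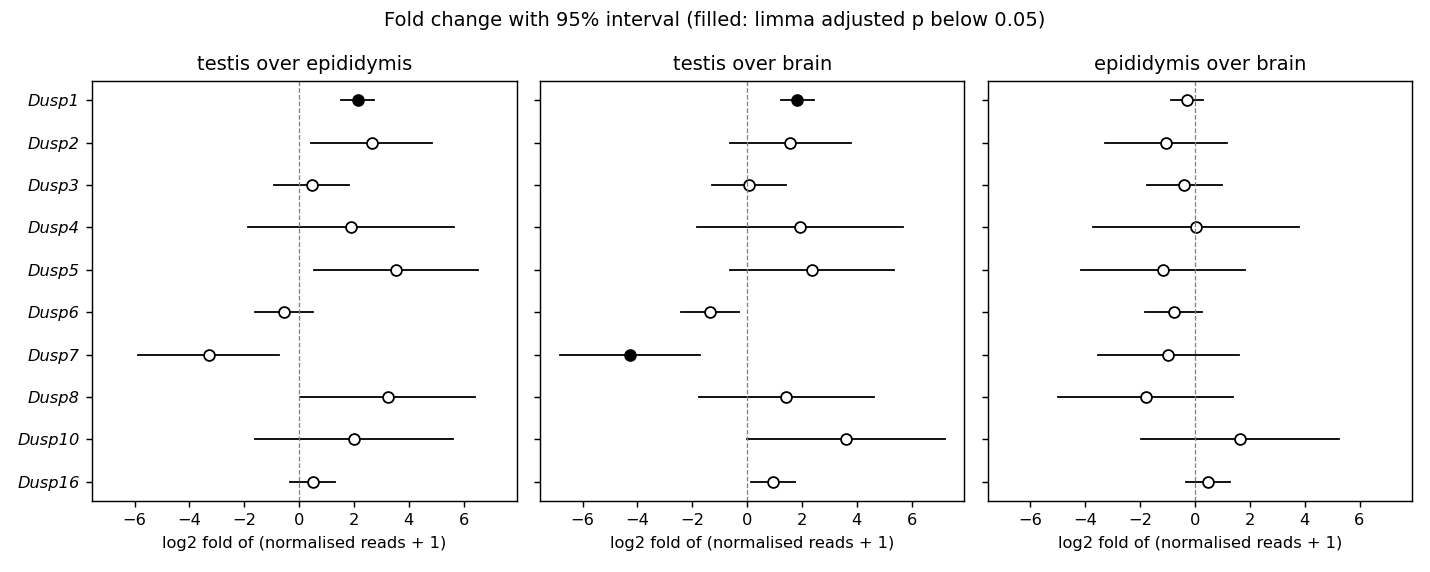
Log2 folds of (normalised reads + 1) for each gene in the 3 comparisons, with lines for the 95% intervals from limma over 9 libraries; filled circles passed an adjusted p below 0.05. Dusp1 is filled in both testis comparisons (2.13 and 1.83), Dusp7 in testis over brain (-4.27), and no circle is filled in epididymis over brain.

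Across the family, 8 of 10 folds were above 0 in testis against epididymis and 8 of 10 in testis against brain, and Dusp6 and Dusp7 were the pair below 0 both times. These comparisons share the testis libraries. Member medians were 1.94 against epididymis and 1.51 against brain on the log2 scale, beside 0.10 and -0.07 over all tested genes. For epididymis against brain, 3 folds were above 0 and 7 below, with a median of -0.59 beside -0.13 over all tested genes. Groups did not overlap for 3 members in testis against epididymis (Dusp1, Dusp5 and Dusp8, each higher in testis), against 19.8% of all tested genes, or 11% higher and 8.8% lower. In testis against brain they did not overlap for 7 members, with Dusp1, Dusp2, Dusp5, Dusp10 and Dusp16 higher and Dusp6 and Dusp7 lower, against 30.8% of all tested genes, or 15.9% higher and 14.9% lower. In epididymis against brain 1 member did not overlap (Dusp7, lower), against 22% of all tested genes, or 10.5% higher and 11.5% lower. Rescaling libraries to the same total made these counts 4, 6 and 1. Dusp7, lower in testis, joined against epididymis, and Dusp16 dropped out against brain. Shares of all tested genes were not computed on that scale, so the shares above do not apply to it. That rescaling moved the median fold of all genes by -0.17 in testis against epididymis and by -0.23 in testis against brain.

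Levels of different genes were compared per kilobase of annotated exon. Dusp1 ranked first of 10 in each organ, at 1341 ± 294 normalised reads per kb in testis, 310.3 ± 87.5 in epididymis and 387 ± 138 in brain. It made up 78.8% to 83.9% of the summed length-scaled level of the 10 genes in testis libraries, 53.0% to 71.4% in epididymis libraries and 54.3% to 71.2% in brain libraries. The share was higher in every testis library than in any other. The gene in second place was Dusp2 in testis (109 ± 46.8 per kb), but Dusp6 in epididymis (54.6 ± 26.5) and in brain (87.5 ± 27.0). Dusp4 and Dusp7 were the lowest pair in testis, at 6.72 ± 6.09 and 6.30 ± 8.62 per kb, whereas Dusp7 ranked 3 in brain at 48.5 ± 12.7 per kb.

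Summed by role, Dusp6 and Dusp7 together reached 31.9 to 44.0 normalised reads per kb in testis, 52.4 to 102 in epididymis and 94.9 to 169 in brain. The testis libraries lay below all others, also after rescaling to the same total. Dusp8, Dusp10 and Dusp16 together reached 57.3 to 102 per kb in testis, 29.5 to 61.2 in epididymis and 25.7 to 37.5 in brain, so testis lay above brain and overlapped with epididymis. Dusp2, Dusp4 and Dusp5 together reached 97.9 to 200.2 per kb in testis, 9.46 to 94.6 in epididymis and 33.5 to 51.4 in brain. The narrow gap between testis and epididymis in that sum closed after rescaling, where testis began at 90.8 and epididymis reached 98.6. All 9 members other than Dusp1 summed to 262 to 325 per kb in testis, 134 to 286 in epididymis and 216 to 288 in brain, with overlap between all organs.

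**Figure D3:**
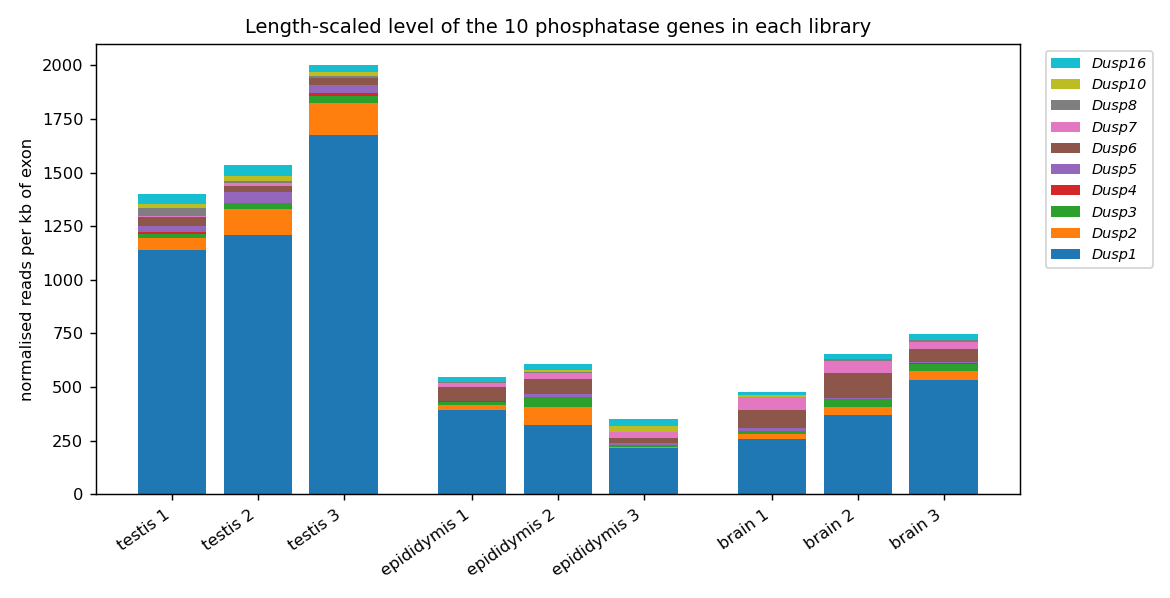
Length-scaled level of the 10 genes (normalised reads per kb of exon, stacked from Dusp1 at the bottom) in each library of testis, epididymis and brain macrophages. Sums run from 1399 to 2000.3 in testis, from 351 to 608 in epididymis and from 477 to 749 in brain, with Dusp1 as the largest block of every bar.

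The kinases that these phosphatases act on did not pass the test. All 8 tested MAP kinase genes and all 7 tested MAP kinase kinase genes went uncalled in each of the 3 comparisons, with list medians of 0.40 and 0.69 for testis over epididymis and of -0.02 and 0.10 for testis over brain. Of 17 tested MAP kinase kinase kinase genes, 0 were called in testis against epididymis, 2 rose and 1 fell in testis against brain, and 0 were called in epididymis against brain. Map3k8, a kinase gene that links Toll-like receptors to ERK, averaged 541 ± 86.1 in testis and 153 ± 30.7 in brain, a log2 fold of 1.82 (SE 0.46, limma adjusted p = 0.017). Taok3 averaged 1704 ± 259 in testis and 804 ± 362 in brain, and Map3k12, an activator of JNK, averaged 138 ± 23.7 in testis and 318 ± 80.7 in brain (limma adjusted p = 0.014 and 0.043). None of the 3 calls held throughout. That of Map3k8 was lost without testis replicate 1 or 2 or brain replicate 1 or 2 (adjusted p between 0.0588 and 0.0692), and that of Taok3 without testis replicate 1 or 2 or brain replicate 1 or 3 (between 0.0579 and 0.0816). That of Map3k12 was lost without any 1 testis or brain library or epididymis replicate 2 (between 0.0502 and 0.205).

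Among 10 tested kinases that MAP kinases activate, 1 rose in testis against epididymis, 2 rose in testis against brain and 0 were called in epididymis against brain. Mknk2, which phosphorylates a translation initiation factor, had 329, 302 and 253 normalised reads in testis against 16.4, 31.0 and 69.0 in epididymis, so that the groups lay far apart, with a log2 fold of 3.12 (SE 0.64, limma adjusted p = 0.011, or 0.0574 without testis replicate 2). Mapkapk3, a kinase downstream of p38, averaged 242 ± 24.1 in testis and 46.9 ± 13.2 in brain, a log2 fold of 2.38 (SE 0.49, limma adjusted p = 0.0046). Rps6ka3, an ERK-activated kinase gene, averaged 342 ± 121 in testis and 112 ± 18.9 in brain (limma adjusted p = 0.025, or 0.051 after rescaling to the same total and between 0.0665 and 0.117 without testis replicate 2 or 3 or brain replicate 1 or 2). Of 9 tested inhibitors of Ras-ERK signalling, Pebp1, a Raf-binding protein gene, rose in testis against brain, at 331 ± 208 in testis and 67.8 ± 30.3 in brain (limma adjusted p = 0.018, or between 0.0501 and 0.112 without testis replicate 3 or brain replicate 1 or 2), and 0 were called in the other comparisons. Other phosphatases of MAP kinases gave 0 calls among 6 tested in any comparison, with a median of 2.07 for testis over epididymis. Beside the family itself, 10 atypical dual-specificity phosphatase genes were tested, a list in which slingshot (Ssh) genes were also counted. Of these, 0 were called in testis against epididymis or in epididymis against brain. In testis against brain 1 rose and 1 fell. Ssh2, a phosphatase gene of the actin regulator cofilin, averaged 2045 ± 207 in testis and 4172 ± 1037 in brain, a log2 fold of -1.002 (SE 0.22, limma adjusted p = 0.0063). The call of Ssh2 was lost without the variance trend (limma adjusted p = 0.162). Dusp15 averaged 22.5 ± 8.21 in testis and had no read in brain. It passed the filter on low values only through its testis libraries (20.7, 31.5 and 15.4), with 9.09, 0 and 0 in epididymis. The organ where it is high thus decided that it was tested. With 3 reads set as the floor in each brain library, its testis mean was 7.73 times the mean floor, a limit that covers counting error only. The log2 fold was 4.50 (SE 1.35, limma adjusted p = 0.043), and this call was lost in 12 of 19 alternatives. Among them were edgeR (0.164), DESeq2 (0.0968), a fit without the filter on low values (0.081), pseudocount 5 (0.0582), quantile normalization (0.0538) and leaving out any 1 testis or brain library (between 0.0643 and 0.13).

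Immediate early genes, many of them targets of MAP kinase signalling, were the list with the most calls. Of 13 tested immediate early genes, 10 rose in testis against epididymis and 3 did not pass, with a list median of 1.42. That count was 5 without testis replicate 1 and epididymis replicate 3 and 1 without the variance trend. Junb, an AP-1 subunit gene, had 2539.6, 2146 and 2722 normalised reads in testis against 635, 607 and 673 in epididymis, where every testis library lay above every epididymis library, a log2 fold of 1.94 (SE 0.26, limma adjusted p = 0.00059). Its call was lost without the variance trend (limma adjusted p = 0.0635). Ier2 averaged 968 ± 163 in testis and 248 ± 237 in epididymis, where the limma adjusted p was 0.014, but 0.0515 with edgeR and between 0.0553 and 0.0653 without testis replicate 2 or 3 or epididymis replicate 2 or 3. For Ier2 it was 0.154 without the variance trend and 0.0905 with only the 2 organs in the fit. Without testis replicate 1 and epididymis replicate 3 together it was 0.0993. Egr2, a zinc finger factor gene, averaged 287 ± 66.2 in testis and 55.4 ± 23.5 in epididymis, where the limma adjusted p was 0.018, but between 0.0557 and 0.072 without testis replicate 1 or 3 or epididymis replicate 2. Against brain 6 of the 13 rose in testis and 7 did not pass, with a median of 0.98. The count was 3 without testis replicate 3 and 1 without the variance trend. Fosl2, another AP-1 subunit gene, averaged 694 ± 188 in testis and 191 ± 11.2 in brain, a log2 fold of 1.82 (SE 0.30, limma adjusted p = 0.00064), and Ier3 averaged 1069.8 ± 321 in testis and 399 ± 195 in brain (limma adjusted p = 0.0056). This call of Ier3 was lost without the variance trend (limma adjusted p = 0.098).

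Between epididymis and brain, 2 immediate early genes rose, 3 fell and 8 did not pass, with a median of -0.71. That count of 5 became 3 without epididymis replicate 1 or brain replicate 2 and 1 without the variance trend. Egr1, an ERK-induced zinc finger factor gene, averaged 1646 ± 371 in epididymis and 8567 ± 2059 in brain, a log2 fold of -2.37 (SE 0.25, limma adjusted p = 3.3e-05). Jun averaged 18346 ± 1549 in epididymis and 43973 ± 8574 in brain, while Ier3 averaged 1072 ± 116 in epididymis and 399 ± 195 in brain (limma adjusted p = 0.00076 and 0.0099). The call of Ier3 was lost without epididymis replicate 1 or brain replicate 1 or 2 (between 0.0521 and 0.0603). It was also lost with only the 2 organs in the fit (limma adjusted p = 0.0522) and without the variance trend (0.157). That of Jun was lost in 1 of 19 alternatives, where the adjusted p was 0.121. Of 6 tested genes for proteins that bind AU-rich elements, 1 rose in testis against epididymis, 0 were called in testis against brain and 1 fell in epididymis against brain. It was Zfp36l1, an mRNA decay factor gene, both times, with 1208 ± 202 in testis, 311 ± 96.8 in epididymis and 762 ± 165 in brain. Its call between epididymis and brain (limma adjusted p = 0.015) was lost without epididymis replicate 2 or brain replicate 1 or 3 (between 0.0618 and 0.0828). In testis against epididymis its adjusted p was 0.062 without the variance trend. Over all 86 tested pathway genes, 14.0% were called in testis against epididymis, 16.3% in testis against brain and 6.98% in epididymis against brain. The shares of all tested genes were 4.39%, 11.7% and 4.79%. Immediate early genes made up 10 of the 12 pathway genes called higher in testis against epididymis and 6 of the 12 called higher against brain.

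**Figure D4:**
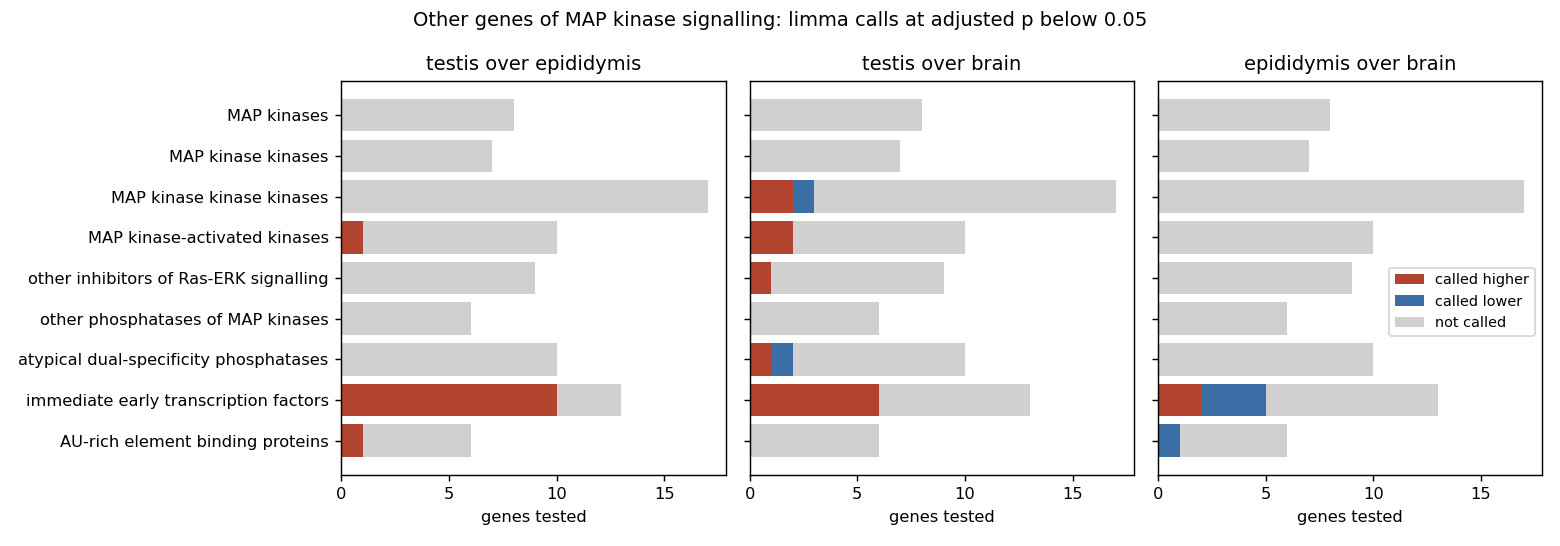
Number of tested genes (horizontal axes) of 9 lists of MAP kinase signalling that were called higher, called lower or not called in each comparison of organs by limma at an adjusted p below 0.05. The immediate early list has 10, 6 and 5 called genes of 13, and the MAP kinase and MAP kinase kinase lists have 0.

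The gene whose log2 values followed those of Dusp1 most closely over the 9 libraries, among 6218 candidates, was Nfkbia (Pearson r = 0.98, Spearman rho = 0.92), the inhibitor of NF-kappaB. Mcl1, an anti-apoptotic gene (r = 0.98, rho = 0.97), and Ube2n, a ubiquitin-conjugating enzyme gene (r = 0.96, rho = 0.95), came next. Nfkbia averaged 17889 ± 373 in testis, 5574 ± 1042 in epididymis and 6933 ± 2360 in brain, the same order of organs as Dusp1. For Dusp7 the closest were Wdr31 (r = 0.98, rho = 0.93), Nkap (r = 0.97, rho = 0.80) and Rasal3, a Ras GTPase-activating protein gene (r = 0.96, rho = 0.88). Wdr31 averaged 124 ± 79.8 in testis, 396 ± 69.4 in epididymis and 549 ± 152 in brain. These values describe 9 libraries that fall into 3 organs, and libraries of 1 organ share a mouse number. By rank correlation 1 of the 3 genes named for Dusp1 and 0 of those for Dusp7 stayed among the first 3.

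The sort was checked against marker genes. All 10 macrophage markers, Ptprc, Itgam, Adgre1 and Csf1r among them, had reads in every organ, and together took 40.4 to 45.7 of every 10000 normalised reads in testis, 74.8 to 84.7 in epididymis and 111 to 116 in brain. Microglia markers took 1.39 to 2.38 per 10000 in testis, 10.99 to 15.3 in epididymis and 50.9 to 57.1 in brain, and Tmem119 and P2ry12 were present in all libraries. Of the macrophage markers 3 were called lower in testis against epididymis, 1 higher and 3 lower in testis against brain and 2 higher and 2 lower in epididymis against brain, and of the 7 microglia markers 4, 7 and 6 were called lower in these comparisons. Markers of other cells also moved with organ. Of 7 T and NK cell markers in the table, 2 were called higher in testis against epididymis and 4 against brain, at 2.28 to 3.38 per 10000 in testis, 0.207 to 0.560 in epididymis and 0.233 to 0.506 in brain, with Cd3e at 0 in brain. Of 7 Leydig cell markers, 5 were called higher against epididymis and 4 against brain, at 3.97 to 10.5 per 10000 in testis, 0.0910 to 0.643 in epididymis and 0.249 to 0.336 in brain, with Cyp17a1 at 0 in both other organs. Of 7 monocyte markers, 1 was called higher in testis against epididymis and 3 against brain, at 4.97 to 7.07 per 10000 in testis, 0.215 to 1.007 in epididymis and 0.378 to 0.766 in brain. Of 8 fibroblast and muscle markers, 2 were called higher in testis against brain, at 0.733 to 0.938 per 10000 in testis and 0.0660 to 0.114 in brain. Germ cell markers, of which 5 of 7 were called higher in testis and 5 of 7 in epididymis against brain, took 2.37 to 5.25 per 10000 in testis, 1.49 to 2.46 in epididymis and 0.0171 to 0.112 in brain. Epididymal epithelium markers took 1.48 to 1.71 per 10000 in epididymis, while 6 of 7 were at 0 in testis and 6 in brain. Of these, 2 were called lower in testis against epididymis and 2 higher in epididymis against brain. Dendritic cell markers took 1.21 to 1.76 per 10000 in testis, 1.28 to 1.48 in epididymis and 0.383 to 0.54 in brain, with 1 called higher and 1 lower in testis against epididymis and 1 called higher in each of these organs against brain. The sort excluded CD11c and Ly6C, but RNA of both was found, given here in normalised reads. Itgax, which encodes CD11c, had 265, 209 and 294 in epididymis, 0, 0 and 21.4 in testis and 0 in every brain library. Ly6c2, for Ly6C, had 101, 63.0 and 80.4 in testis, 0, 0.938 and 32.3 in epididymis and 8.20, 46.8 and 6.22 in brain. All 6 neutrophil markers were at 0 in testis, and the 2 that were tested were called lower both in testis and in epididymis against brain. The summed level of the 6 was 0 to 0.158 per 10000 in epididymis and 0.385 to 1.28 in brain. Of the neuron and glia markers 1 was called lower in testis and 1 in epididymis against brain, at 0.527 to 1.62 per 10000 in testis, 0.34 to 0.807 in epididymis and 1.24 to 1.43 in brain. B cell and endothelium markers gave 0 calls by limma and took at most 0.432 and 1.12 per 10000 in any library. The part of these cells in the levels of Dusp1, Dusp7 and the immediate early genes was not tested.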

How the data were processed

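Per the labels' protocols, 10 ng of RNA per library went into TruSeq v2 library preparation, a chemistry without strand marks. The deposited values are a signal per gene and library, made by the authors as reads divided by 1 factor per library; the submitters' processing notes name CASAVA 1.8, Bowtie2 2.2.1, Partek 6.6, DESeq2 and mm10, and roles, annotation and counting rule were not given in the sources used here. Every value was a whole multiple of the smallest value above 0 of its library (100% of values, within 1e-06 reads), and dividing by that value recovered whole reads. Factors recomputed from these reads, as the median ratio to the geometric mean over libraries, matched the authors' factors within 3.8e-15 in relative terms. All 9 columns were matched to libraries by title.

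Log2(value + 1) was fitted with limma 3.58.1 in R 4.3.3, with 1 mean per organ and a variance trend on the mean level. The test covered 11766 genes that reached 10 normalised reads in 3 or more libraries, and p-values were adjusted by the Benjamini-Hochberg method over all of them in each comparison. edgeR 4.0.16 and DESeq2 1.42.0 on the recovered reads were alternatives. On those reads edgeR called 366, 1056 and 458 genes and DESeq2 817, 1637 and 944 in testis against epididymis, testis against brain and epididymis against brain. Coordinates and exon lengths are from GENCODE M21 (GRCm38, which mm10 denotes), and promoters from RefSeq (GRCm38.p6). The fit was also run on simulated independent counts, which says nothing of libraries that share a mouse number.

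The members, the pathway and marker lists and the alternatives were chosen with earlier results of these data known. Of 114 pathway genes 98 are in the table and 86 were tested. From each pathway list up to 3 called genes per direction and comparison with groups apart were eligible to be named, by size of fold, and not all are printed. For each called member the 3 genes with the highest Pearson r were named, among tested genes with a highest organ mean of at least 100. Replicates are numbered in the order of the sample list.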

Additional observations from a re-analysis of the deposited data

How the results depend on the processing

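No paired analysis was possible because the labels give no replicate number that libraries of different organs share. The number of members called in testis against epididymis (1) became 0 without the variance trend. In testis against brain the 2 calls became 1 without the variance trend, with only the 2 organs in the fit and with edgeR, and ranged from 1 to 3 when single libraries were left out. All genes called, 516, 1371 and 564 in the 3 comparisons, became 192, 837 and 306 without the variance trend. In testis against epididymis they became 250 with only the 2 organs in the fit, 817 with DESeq2 and 198 without testis replicate 1 and epididymis replicate 3, and in epididymis against brain 944 with DESeq2. Leaving out single libraries gave 278 to 442, 827 to 1457 and 320 to 597 calls, with moves of over 1.5 times for testis replicate 2 (301), epididymis replicate 2 (278) and 3 (293) in testis against epididymis, and for brain replicates 1 and 2 in both comparisons with brain (827 and 889, then 320 and 327). Rescaling to the same total turned 293 higher and 223 lower into 227 and 307 in testis against epididymis, and 803 and 568 into 654 and 772 in testis against brain. Per length of the longest transcript the mean share of Dusp1 in testis was 84.0%, against 81.3% per exon union. By rank correlation 1 and 0 of the 3 genes nearest to Dusp1 and Dusp7 were kept.

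Folds of uncalled members changed sign. In testis against brain Dusp3 (0.07) became -0.16 after rescaling and ranged from -0.30 to 0.34 when single libraries were left out, reaching -0.04 and -0.08 without testis replicate 2 and 3. In epididymis against brain, Dusp2 (-1.06) became 0.013 with edgeR and 0.049 with DESeq2. Leaving out single libraries there gave ranges of -2.25 to 0.41 for Dusp2, -1.05 to 0.026 for Dusp3, -1.28 to 1.32 for Dusp4 and -2.09 to 0.37 for Dusp5, with -0.60 for Dusp4 without brain replicate 1 or 2. The cause was not tested in any case. Alternatives for pathway genes, added after the data were seen, reversed 0 of the named genes. Dusp4 rests on 60, 16 and 15 reads in testis, epididymis and brain, and whether depth or the spread between libraries sets its intervals was not tested.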
